A study of Mus musculus with 14 samples.

Results

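The 9 genes described here are Ncam2, Grik1, Tiam1, Synj1, Itsn1, Kcnj6, Kcnj15, Dscam and Pcp4. They were picked by name, with earlier results of these data known, as neuronal signalling genes lying inside the chromosome 16 segment that Dp(16)1Yey mice carry in 3 copies. The rule used no difference between groups. Measured values entered only in matching each gene to its row, the one with the highest mean. The genes are 9 of the 20424 loci that could be named among 59796 in the gene table, and 107 other named loci lie in the same segment. RNA-seq had been run on hippocampus dissected from embryos of embryonic day 16 to 18, as 14 libraries. Of these, 4 were labelled Dp(16)1Yey, with an extra copy of the mouse chromosome 16 region syntenic to human chromosome 21, and 4 came from their wild-type littermates. Another 3 were labelled 189N3, with an extra copy of Dyrk1a alone, and 3 came from the wild-type littermates of that line. The extra segment of 189N3 is a BAC clone around Dyrk1a that holds none of the 9 genes, so that model served as a second comparison without extra dosage of these genes. The labels name no treatment and no sex, and neither they nor the methods say whether a library held 1 embryo or several. P-values therefore measure the spread between libraries.

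Neurons of the developing hippocampus wire themselves through adhesion molecules of the immunoglobulin family, receive glutamate and potassium-channel signals at the membrane, and recycle synaptic vesicles by clathrin-mediated endocytosis. Ncam2 and Dscam are such adhesion molecules, and both act in axon and dendrite patterning. Grik1 encodes a kainate-type glutamate receptor subunit, and Kcnj6 and Kcnj15 encode inwardly rectifying potassium channels, of which Kcnj6 (GIRK2) carries the slow inhibition evoked by GABA-B receptors. Synj1 encodes the phosphoinositide phosphatase that uncoats endocytosed vesicles, and Itsn1 the scaffold that assembles the endocytic machinery. Tiam1 encodes an exchange factor that activates the GTPase Rac1 in dendritic spines, and Pcp4 a small protein that alters the binding of calcium by calmodulin. In trisomy a gene in 3 copies instead of 2 would give 1.5 times the transcript, a log2 difference of 0.58, if output followed copy number.

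The genes were spread over the segment, which runs from Lipi to Zbtb21 (chromosome 16, from 75540514 to 97962622, GRCm38, GENCODE vM21). Along the forward strand of the map, Ncam2 lies first (81200697 to 81626828), followed by Grik1 (87895900 to 88290265), Tiam1 (89787111 to 90143769), Synj1 (90936092 to 91011308) and Itsn1 (91729281 to 91920597). Kcnj6 (94748636 to 94997701), Kcnj15 (95257558 to 95300260), Pcp4 (96467606 to 96525793) and Dscam (96590840 to 97170752) occupy the distal end. Ncam2, Itsn1, Kcnj15 and Pcp4 are on the plus strand and the other 5 on the minus strand. Most are long: the span was 580 kb for Dscam, 426 kb for Ncam2, 394 kb for Grik1 and 357 kb for Tiam1, against 58.2 kb for Pcp4 and 42.7 kb for Kcnj15. Pcp4 lies inside the gene model of a read-through form of Igsf5, and the deposited table joins the 2 genes in 1 locus. The Pcp4 row therefore also holds isoforms assigned to Igsf5, mainly the assembled TCONS_00036560 with 29.9% of its fragments. Annotated Igsf5 isoforms held at most 0.36% each. Which gene the fragments of the assembled form come from was not tested. For each model against its littermates, the isoform annotated as Pcp4 is also given apart from the row.

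The 250 bases before the transcription start show how unlike these genes are at their starts, and 3 windows are printed for that reason. RefSeq (GRCm38.p6) gave 11 windows for 8 of the 9 genes; Grik1 had no entry. Capitals mark GC boxes, read as GGGCGG or its reverse complement CCGCCC. The strings are written 5′ to 3′ along the transcribed direction. The Ncam2 window (chr16:81200447-81200696, plus strand) holds 32 CpG dinucleotides and 2 GC boxes. The Synj1 window (chr16:91011309-91011558, minus strand) holds 24 CpG, and the Pcp4 window (chr16:96467356-96467605, plus strand) holds 3.
Ncam2: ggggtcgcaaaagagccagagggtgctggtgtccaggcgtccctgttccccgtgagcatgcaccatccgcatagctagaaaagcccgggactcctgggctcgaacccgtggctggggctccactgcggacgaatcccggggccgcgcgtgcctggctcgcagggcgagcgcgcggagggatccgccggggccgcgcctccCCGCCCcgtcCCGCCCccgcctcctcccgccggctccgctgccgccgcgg
Synj1: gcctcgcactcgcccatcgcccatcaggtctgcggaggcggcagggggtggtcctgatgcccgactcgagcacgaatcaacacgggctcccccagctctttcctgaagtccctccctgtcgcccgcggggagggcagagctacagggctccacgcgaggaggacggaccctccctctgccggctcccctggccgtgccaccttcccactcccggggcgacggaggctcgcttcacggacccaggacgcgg
Pcp4: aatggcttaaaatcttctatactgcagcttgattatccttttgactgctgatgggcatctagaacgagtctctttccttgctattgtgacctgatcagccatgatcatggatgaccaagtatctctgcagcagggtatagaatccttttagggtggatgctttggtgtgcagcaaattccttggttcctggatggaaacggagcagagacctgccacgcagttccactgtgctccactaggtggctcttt
Over 32851 such windows of the mouse genome the median was 6 CpG, and 32.7% held a GC box on either strand. The CpG count of the Ncam2 window lay at percentile 95.4 and that of the Pcp4 window at percentile 29.0. GC boxes were also found in a second Synj1 window (4), the Itsn1 window (5) and a second Kcnj6 window (1), and the 2 CCAAT boxes of the Itsn1 window compare with a CCAAT box in 33.8% of all windows (CCAAT or ATTGG). A match says only that these letters are present.

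The libraries differed in ways that bear on all 9 genes. Depth was 21294870 to 25043369 fragments in Dp(16)1Yey, 22141492 to 24002007 in their littermates, 26508535 to 29098454 in 189N3 and 20809135 to 27338240 in the 189N3 littermates. Dyrk1a, the gene extra in both models, stood at 4688 ± 1042 normalized fragments in 189N3 (SD, n = 3) against 2517 ± 430 (SD, n = 3). The log2 difference was 0.89 (standard error 0.24, limma unadjusted p 0.0022, adjusted p 1.00). Every 189N3 library, at 3938 to 5877, was above every littermate, at 2126 to 2977, as in 1.99% of all loci. In Dp(16)1Yey Dyrk1a stood at 3387 ± 1111 against 2808 ± 424 (SD, n = 4 each), a log2 difference of 0.22 (standard error 0.23, limma adjusted p 0.909), with overlapping libraries. The littermates of Dp(16)1Yey fell in 2 pairs of nearly alike libraries, replicates 0 and 1 and replicates 2 and 3. Neuron markers split the same way: the summed level of 6 neuron markers (Rbfox3, Syt1, Map2, Tubb3, Syn1 and Stmn2, none at 0 in any library) was 65902 to 96950 in littermates and 67078 to 104480 in Dp(16)1Yey. Dp(16)1Yey replicate 0 held the top of that range at 104480, and its other 3 libraries held 67078 to 70782. Over the 81 other named loci of the segment that were tested, the median log2 difference from the littermate mean was 0.69, 0.16, 0.62 and 0.41 in Dp(16)1Yey replicates 0, 1, 2 and 3. Replicate 1 stood lowest, and the log2 differences of the 8 tested genes are given with and without it. This library was set aside for its low values, so a rise of segment genes without it follows from that choice. Replicate 1 also carried 47705 normalized fragments of 4 blood markers, against 4516 to 22213 in the other 7 libraries of this model.

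Levels of the 9 genes spanned 3 orders of magnitude. Per kb of exon, Pcp4 was the most abundant, with group means of 777 to 992 normalized fragments per kb, and Kcnj15 the least, at 0.694 to 1.18. The Pcp4 value is of the whole row, isoforms assigned to Igsf5 included. Synj1 (230 to 286) and Itsn1 (181 to 293) came next and did not separate from each other. Ncam2 (98.7 to 137), Dscam (70.8 to 122), Tiam1 (67.3 to 100.7) and Grik1 (77.6 to 94.0) overlapped in their group means. Kcnj6 was lower, at 6.50 to 9.79 per kb.

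**Figure D1:**
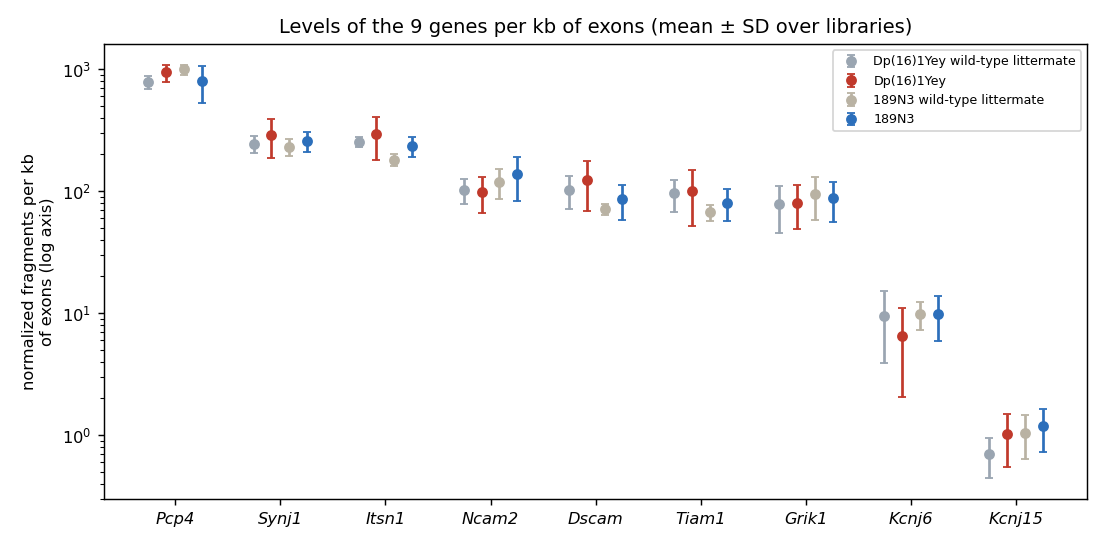
Mean level of each gene in normalized fragments per kb of exon on a log axis, with error bars of 1 SD over libraries, for the 4 groups. Pcp4 is highest at 777 to 992 per kb and Kcnj15 lowest at 0.694 to 1.18.

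Extra gene dosage in Dp(16)1Yey was first asked of the genes as a group. Of the 8 genes that passed the low-value filter (a mean of at least 10 normalized fragments over the 8 libraries; Kcnj15 did not), 6 had a positive and 2 a negative log2 difference between Dp(16)1Yey and littermates, and 0 passed an adjusted p of 0.05 in limma. None passed at an unadjusted p of 0.05 either, where 3.53% of the 36024 loci tested did (1.71% as higher and 1.82% as lower). The median over the 8 was 0.080, against 0.48 over the 81 other named loci of the segment and 0.034 over all loci. Of those 81 loci, 38 were higher at an unadjusted p of 0.05 and 1 was lower, and in 30 every Dp(16)1Yey library stood above every littermate library, as in 1.72% of all loci (every library below: 0.736%). All p-values of this comparison, the exact ones included, count the 4 littermates as separate libraries, though they fell in 2 nearly alike pairs. With each pair averaged, 271 loci passed an unadjusted limma p of 0.05 (0.752%), and 27 of 80 other segment loci were higher. For all 9 genes the 2 groups of libraries overlapped. The 95% confidence intervals of the 8 tested genes all covered 0. All but that of Ncam2, with an upper limit of 0.48, also covered 0.58, the difference of 3 copies against 2. For those genes the intervals cannot tell no change from a change that follows copy number. Adjusted calls over all loci numbered 0 in limma and in edgeR (0%) and 8 in DESeq2 (0.0222%), none of them among the 9 genes. Fewer neurons and less transcript per neuron cannot be told apart in these bulk samples.

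By library, the median of the 8 genes relative to the littermate mean was 0.68, -0.71, 0.15 and 0.13 in Dp(16)1Yey replicates 0, 1, 2 and 3. Only replicate 0 of the 4 came near the median of the other segment loci. The mean of the 6 neuron markers relative to littermates moved in the same direction in replicates 0 and 1, at 0.40 and -0.63, and stood at -0.46 and -0.42 in replicates 2 and 3; the part of the neuron marker level in the result was not tested. Without replicate 1 the median over the 8 genes was 0.32 against 0.56 over the other 81, of which 53 were higher at an unadjusted p of 0.05 (721 of 35999 loci passed in all, 2%). Synj1 was then the 1 gene of the 8 to pass, with a log2 difference of 0.43 (limma adjusted p 1.00). Without that library the difference turned from -0.094 to 0.15 for Ncam2 and stood at 0.35 for Grik1, 0.25 for Tiam1, 0.39 for Itsn1, 0.47 for Dscam, 0.28 for Pcp4 and -0.049 for Kcnj6. Leaving out replicate 0 instead, the library with the highest medians, gave -0.13 over the 8 genes and 0.38 over the other segment loci.

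**Figure D2:**
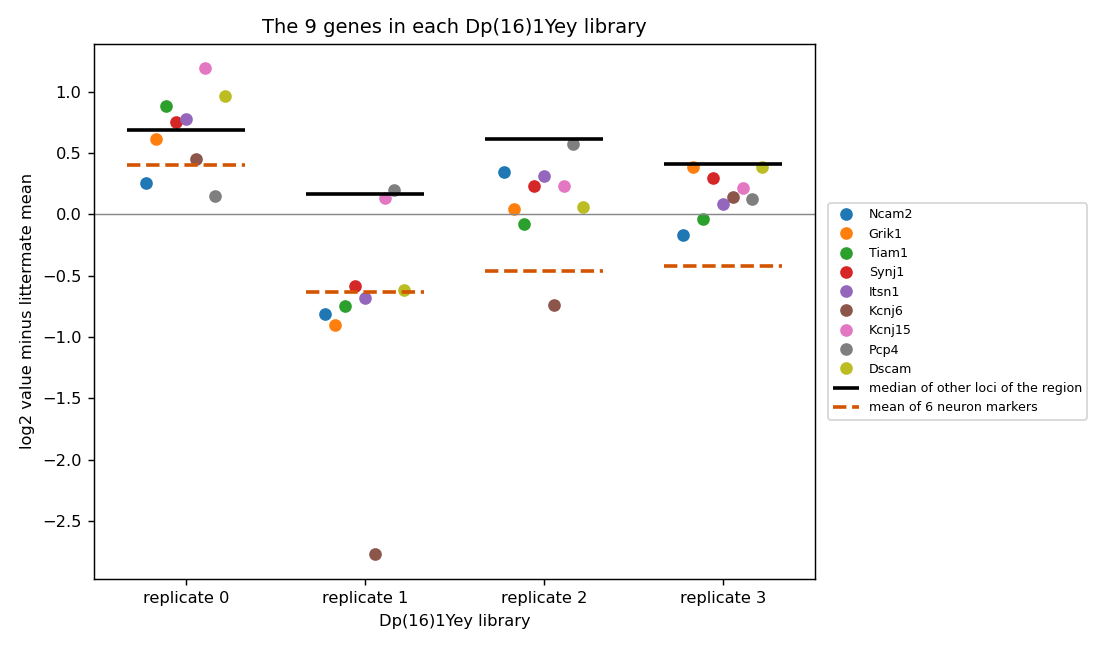
Each dot is a gene in 1 Dp(16)1Yey library, as its log2 value minus the mean log2 value of the littermates. The black bar is the median of 81 other named loci of the segment (0.69, 0.16, 0.62 and 0.41) and the dashed bar the mean of 6 neuron markers, and Kcnj6 in replicate 1 lies lowest at -2.77.

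The adhesion molecules gave wide spreads. Ncam2 stood at 1363, 648, 1446 and 1015 normalized fragments in Dp(16)1Yey replicates 0 to 3 and at 949, 914, 1445 and 1342 in the littermates. Replicate 1 was below every littermate library, and the top of both groups was nearly the same. Its log2 difference was -0.094 (standard error 0.26, 95% confidence interval -0.67 to 0.48, limma adjusted p 0.953, exact two-sided permutation p 0.971), and it turned to 0.15 without replicate 1. Dscam stood at 1699, 565, 906 and 1132 against 701, 633, 1081 and 1183, with replicate 0 above all littermates and replicate 1 below them. Its log2 difference was 0.20 (standard error 0.32, interval -0.50 to 0.90, limma adjusted p 0.920). In 189N3 Ncam2 stood at 1122, 1269 and 2257 against 1065, 1767 and 1196 in littermates, and Dscam at 748, 511 and 994 against 549, 680 and 640; the groups of both genes overlapped.

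Among the channel genes, Grik1 stood at 747, 261, 502 and 637 in Dp(16)1Yey against 324, 349, 731 and 684. The littermate libraries themselves split into a pair near 324 to 349 and a pair near 684 to 731, and the log2 difference was 0.036 (standard error 0.36, interval -0.75 to 0.82). Kcnj6 stood at 85.0, 8.23, 36.7 and 68.4 against 45.3, 26.7, 111 and 108, with 7 fragments behind the value of Dp(16)1Yey replicate 1. Its log2 difference of -0.73 was the most negative of the 8 and the least certain (standard error 0.66, interval -2.19 to 0.73), and it was -0.049 without replicate 1. Kcnj15 was near the limit of detection, at 10.9, 4.70, 5.10 and 5.03 in Dp(16)1Yey and 3.09, 2.97, 5.40 and 6.07 in littermates, or 3 to 11 fragments a library. It was too low for the limma fit, and the exact two-sided permutation p was 0.286 for a log2 difference of 0.44. In 189N3 Grik1 stood at 378, 589 and 802 against 476, 911 and 509, and Kcnj6 at 43.1, 78.3 and 103 against 54.6, 75.8 and 93.0, both overlapping.

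The endocytosis genes were the 2 with the most fragments. Synj1 stood at 3275, 1295, 2289 and 2390 in Dp(16)1Yey against 1708, 1672, 2162 and 2314, with replicate 0 above and replicate 1 below every littermate library. Its log2 difference was 0.17 (standard error 0.25, interval -0.38 to 0.73). Itsn1 stood at 10132, 3687, 7334 and 6270 against 5543, 5422, 6173 and 6553, a log2 difference of 0.12 (standard error 0.26, interval -0.44 to 0.69). Of its Dp(16)1Yey libraries, 2 were above all littermates and 1 below them. In 189N3 the 3 Itsn1 libraries, at 5661, 4408 and 6329, were each above the littermate mean of 4238 but overlapped the littermate range of 3694 to 4698. The log2 difference was 0.36 (standard error 0.23, exact two-sided permutation p 0.2, where 3 against 3 cannot go below 0.1).

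Of the intracellular signalling genes, Tiam1 stood at 1710, 554, 879 and 904 in Dp(16)1Yey against 736, 696, 1174 and 1237. Replicate 0 was above and replicate 1 below the littermate range, and the log2 difference was 0.0041 (standard error 0.32, interval -0.70 to 0.70). Pcp4 varied least among the Dp(16)1Yey libraries. Its locus stood at 878, 911, 1184 and 868 in Dp(16)1Yey against 691, 746, 895 and 858, a log2 difference of 0.26 (standard error 0.17, interval -0.099 to 0.63, limma adjusted p 0.909). All 4 Dp(16)1Yey libraries were above the littermate mean of 797. The isoform annotated as Pcp4 stood at 661, 668, 845 and 616 against 435, 502, 626 and 607, a log2 difference of 0.37 with an exact two-sided permutation p of 0.0571 (the smallest for 4 against 4 is 0.0286), while the rest of the locus differed by 0.025. Only the highest littermate library of that isoform, at 626, overlapped the lowest Dp(16)1Yey library, at 616.

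**Figure D3:**
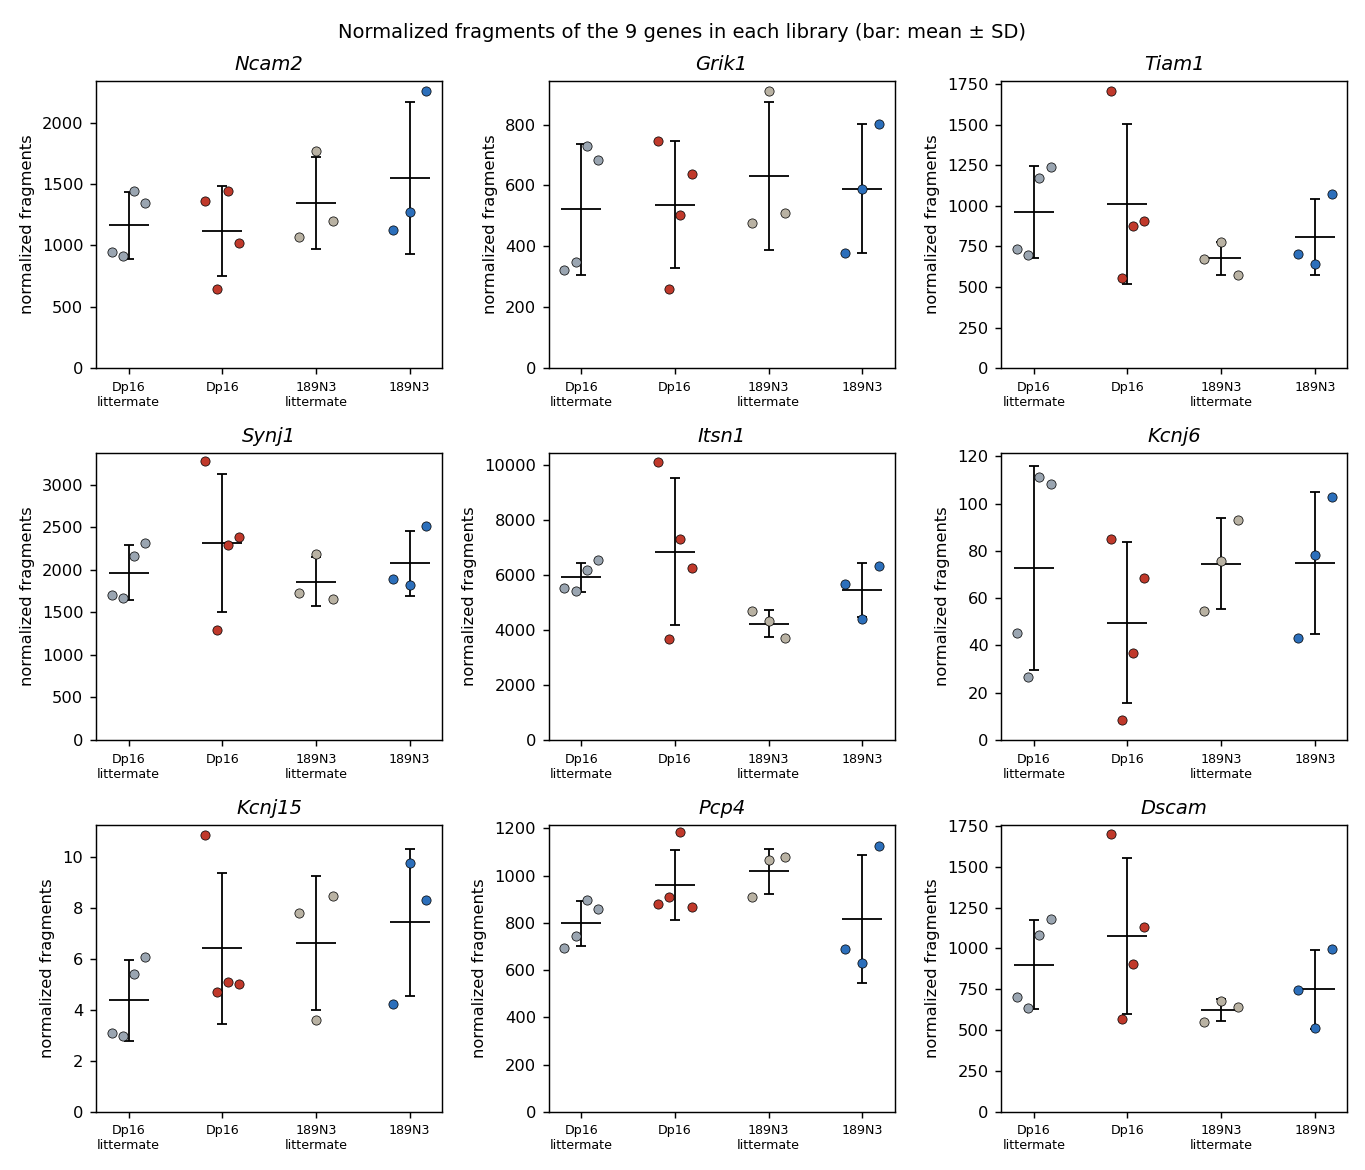
Normalized fragments of each of the 9 genes per library, with the mean and SD of each group as bars; Dp16 stands for Dp(16)1Yey. Dp(16)1Yey libraries and those of their littermates overlap for every gene, and replicate 1 is the lowest Dp(16)1Yey library for 8 of the 9, Pcp4 being the exception.

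In 189N3, where these genes are in 2 copies, 0 of the 8 tested genes passed an adjusted p of 0.05 and none an unadjusted p of 0.05, against 1.87% of 35899 loci (0.825% higher and 1.05% lower). Log2 differences ran from -0.37 at Pcp4 to 0.36 at Itsn1, with a median of 0.16 beside 0.0044 over 79 other named loci of the segment and -0.037 over all loci. Adjusted calls over all loci numbered 0 in limma and edgeR and 15 in DESeq2 (0.0418%). In 1.99% of loci every 189N3 library stood above every littermate library and in 2.99% below, and for the 9 genes the groups overlapped. The joined Pcp4 locus stood at 688, 631 and 1126 against 909, 1068 and 1078, with replicate 2 alone above all littermates. Its isoform annotated as Pcp4 differed by -0.28 (exact two-sided permutation p 0.4) and the rest of the locus by -0.53 (exact p 0.2). The test of the difference between the models gave 0 adjusted calls over 36045 loci (957 at an unadjusted p of 0.05, 2.66%). Pcp4 was the 1 gene of the 8 with an unadjusted p under 0.05 there, at a difference of 0.63 (standard error 0.29, limma p 0.0444, limma adjusted p 0.922). That value is of the joined locus, and the isoform annotated as Pcp4 was not tested alone between the models. The other 7 genes had unadjusted p from 0.459 to 0.960.

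**Figure D4:**
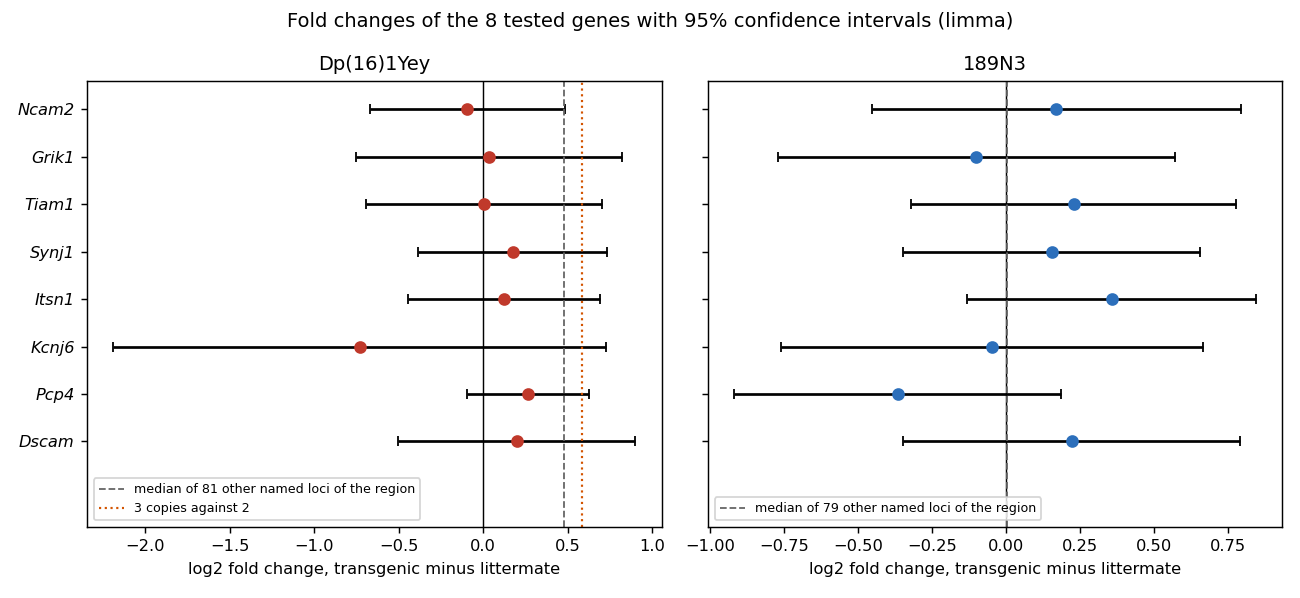
Log2 difference between transgenic and littermate libraries for the 8 tested genes with 95% confidence intervals from limma, for Dp(16)1Yey (left) and 189N3 (right). Every interval covers 0. The dashed line is the median of the other named loci of the segment (0.48 and 0.0044). The dotted line, in the Dp(16)1Yey panel, is 0.58, the difference of 3 copies against 2. Every interval of that panel but the one of Ncam2 also covers 0.58.

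In Dp(16)1Yey replicates 0, 2 and 3, 2 isoforms of Itsn1 stood at shares unlike those of the littermates. The locus holds 15 isoforms, of which 3 carried at least 10% of its fragments. The annotated isoform TCONS_00036438 held 49.1% to 60.1% of the locus in Dp(16)1Yey and from 41.4% to 57.3% in littermates. The assembled isoform TCONS_00036442 stood at 4451, 220, 2046 and 2375 normalized fragments against 275, 363, 532 and 149. The assembled isoform TCONS_00036443 stood at 9.38, 1020, 384 and 108 against 1802, 1657, 2391 and 3068. The first was above every littermate in 3 of 4 Dp(16)1Yey libraries and the second below every littermate in 4 of 4. The share of all isoforms that separate in this way was not counted. In replicate 1 the first held 5.97% of the locus, within the 2.28% to 8.61% of littermates. The second held 27.7% there, just below their 30.6% to 46.8%. The log2 differences of the 2 isoforms were 2.30 (standard error 0.88, limma unadjusted p 0.0309) and -3.90 (standard error 1.25, limma unadjusted p 0.0139). Neither passed adjustment in limma over 60652 isoforms (adjusted p 0.945 for both, beside 13 calls in all, 0.0214%). Both are spliced variants of 1 UCSC transcript that the quantification divided, and in 189N3 they stood at 311, 1640 and 635 against 343, 391 and 10.1, and at 2664, 578 and 2770 against 1868, 1795 and 1697. The high first share of 189N3 replicate 1 came with the low second share, so a library of the other model showed the same exchange.

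**Figure D5:**
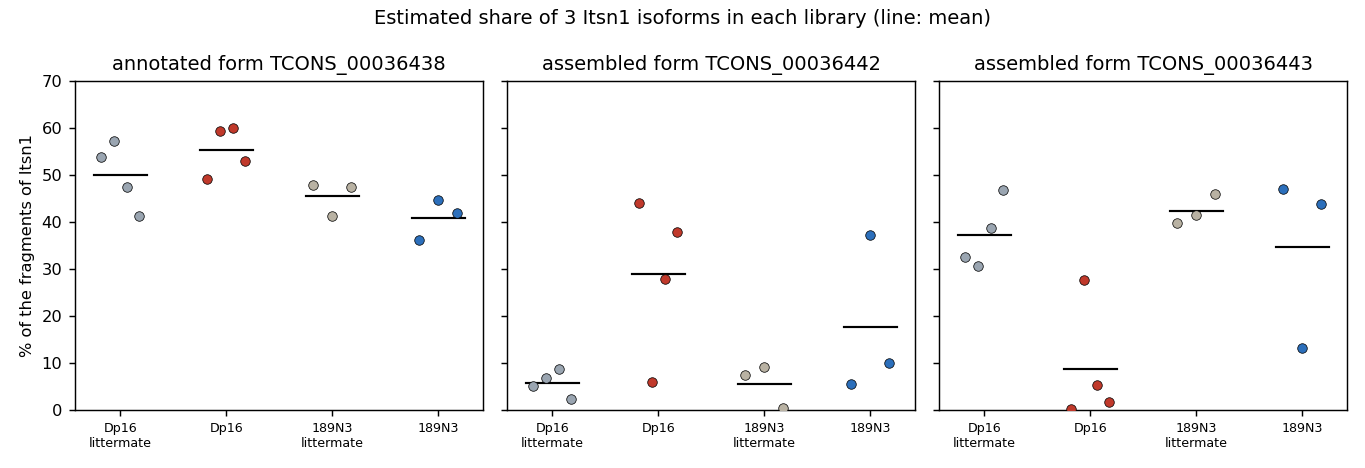
Percent of the fragments of the Itsn1 locus assigned to 3 isoforms, 1 dot per library with the group mean as a line; Dp16 stands for Dp(16)1Yey. In Dp(16)1Yey replicate 0 the share of TCONS_00036442 is 43.9% and that of TCONS_00036443 is 0.0926%.

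Of the 69 isoforms of the 9 loci, 35 were tested in Dp(16)1Yey, 3 had an unadjusted p under 0.05 (3.48% of all isoforms did) and 0 passed adjustment. The third was the annotated Tiam1 isoform TCONS_00038088, at 37.5, 29.2, 17.4 and 38.3 against 0, 0, 0 and 12.9, which holds 1.42% of the locus. In 189N3, 31 were tested, 2 had an unadjusted p under 0.05 (2.56% of all) and 0 passed adjustment, where 22 of 60141 did (0.0366%). Ncam2 was carried by 1 isoform with 91.4% of its fragments, and Synj1 by 2 with 52.6% and 39.3%. Dscam was carried by its annotated isoform with 70.3%, and Grik1 divided its fragments among 5 isoforms of 11.7% to 29.4%.

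The table also holds 18 loci that overlap 6 of the genes on the opposite strand or lie in their introns, 17 of them tested. Their median log2 difference in Dp(16)1Yey was 0.43, with 13 positive and 4 negative, 2 higher and 0 lower at an unadjusted p of 0.05, and 0 adjusted calls. Of all 36024 loci tested, 19770 were positive, and 1.71% were higher and 1.82% lower at that p. The 18 loci lie in the triplicated segment, where the 81 other named loci had a median of 0.48, with 38 higher at that p. Opposite to Tiam1, the locus XLOC_020532 stood at 165, 108, 146 and 205 against 94.8, 92.0, 85.3 and 81.9. Every Dp(16)1Yey library was thus above every littermate, as in 1.72% of all loci (log2 difference 0.78, standard error 0.21, exact two-sided permutation p 0.0286, the smallest possible). Replicate 1 was the lowest of the 4 but still above the littermates. Opposite to Dscam, XLOC_020613 stood at 852, 736, 1165 and 1871 against 802, 745, 536 and 510 (log2 difference 0.77, standard error 0.28). The 4 loci opposite to Ncam2 had log2 differences of -0.11 to 0.11, as the Ncam2 row did. The library kit marks strand, but the strand setting of the counting is not given in the sources used here, so reads of a gene and of its partner cannot be told apart.

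Genes of the same pathways outside the segment mostly had negative log2 differences in Dp(16)1Yey, without any adjusted call. Of all 36024 loci tested, 16254 were negative, and over named loci alone the median was -0.049. Of 29 genes of clathrin-mediated endocytosis, which work with Synj1 and Itsn1, 26 had a negative log2 difference (median -0.26, 0 with an unadjusted p under 0.05). Snap91, a clathrin assembly factor, stood at 1827 ± 638 against 2464 ± 490 (SD, n = 4 each; log2 -0.47) and Ap2a2, a subunit of the adaptor AP2, at 2971 ± 1027 against 3754 ± 609 (log2 -0.38). Of the paralogs of both genes, Itsn2 differed by -0.032 and Synj2 by -0.61. The 11 calmodulin-related genes had 10 negative (median -0.33). Pcp4l1, the closest relative of Pcp4, stood at 15.2 ± 6.84 against 37.9 ± 15.7 (log2 -1.31, limma unadjusted p 0.0140, limma adjusted p 0.909). It was the 1 of 11 with an unadjusted p under 0.05, beside 3.53% of all loci. Camk2b, a kinase that calmodulin activates, stood at 2613 ± 1793 against 3869 ± 851 (log2 -0.81).

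Kainate receptor genes had 5 negative of 6 (median -0.27), among them Grik2 with -0.31, Grik3 with -0.22, Grik4 with -0.89 and Grik5 with -0.35. Inward rectifier and GABA-B receptor genes had 13 negative of 16 (median -0.23, lowest -0.81), among them Kcnj9 (-0.49) and the GABA-B subunit Gabbr2 (-0.78). The paralogs Kcnj3, Kcnj5, Kcnj10 and Kcnj16 differed by -0.22, 0.12, -0.19 and -0.66. Adhesion partners had 7 negative of 9 (median -0.23), with L1cam at -0.51, Ncam1 at -0.36 and Dscaml1 at -0.34. Rac signalling genes had 9 negative of 15 (median -0.17), with Cyfip2, a subunit of the WAVE complex, at -0.43 and Tiam2 at 0.26. Proteins that the study had paired with the 9 in dendrites had 8 negative of 11 (median -0.27). None of these 5 lists had a gene with an unadjusted p under 0.05 in Dp(16)1Yey. The 6 neuron markers had a median of -0.30, with Syn1 at -0.63 and Syt1 at -0.37, and the mean log2 level of all 6 differed by -0.28 with an exact two-sided permutation p of 0.286, so a lower level was not shown. The part of the neuron markers in the values of the lists was not tested.

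In 189N3 the same lists were mostly positive, without an adjusted call, with medians of 0.20 for endocytosis (27 of 29 positive, 1 with an unadjusted p under 0.05), 0.25 for calmodulin, 0.26 for kainate receptors, 0.23 for inward rectifiers (1 under 0.05), 0.34 for adhesion partners, 0.20 for Rac signalling and 0.20 for the paired proteins. Of all 35899 loci tested in 189N3, 15740 were positive and 1.87% had a limma unadjusted p under 0.05. Over named loci alone the median was 0.041. The neuron markers were positive in 189N3 too, with a median of 0.23. A single library stood apart: the summed neuron markers were 136245 in 189N3 replicate 2, whereas replicates 0 and 1, at 96143 and 86849, lay within the littermate range of 82842 to 101264. The median of the 8 genes relative to the littermate mean was 0.54 in that library and -0.092 and -0.042 in replicates 0 and 1, and without it the median log2 difference of the 8 was -0.071. The hippocampal and excitatory neuron list had none of its 8 genes at 0 in any library. Its summed level was higher in every Dp(16)1Yey library, at 22714 to 27409 normalized fragments, than in every littermate, at 19580 to 22118. Of its 8 genes, however, 4 were higher and 4 lower, with a median log2 difference of -0.025. How often such sums separate was not counted. The summed level was 22697 to 30874 in 189N3 against 22029 to 26544. Neurod6, which made up much of the sum, stood at 15085 ± 3840 in Dp(16)1Yey against 9772 ± 929 (log2 0.60, limma unadjusted p 0.00841). It was the 1 gene of the 8 under 0.05, beside 3.53% of all loci, and did not pass adjustment. Prox1, a marker of the dentate gyrus, stood at 423 against 681 (log2 -0.89). Blood markers had a median of 1.23 in Dp(16)1Yey and -1.28 in 189N3. In 189N3 their sums were 13751 to 21965, below the 33452 to 53934 of its littermates. All 4 were lower there at a limma unadjusted p of 0.05, as 1.05% of all loci were. Connective tissue markers had medians of 0.99 in Dp(16)1Yey and -0.96 in 189N3. In Dp(16)1Yey 3 of the 4 were positive, with Col1a1 at 1.98 and Col1a2 at 1.39, and 1 was negative at -0.59. Striatum markers, at 548 to 1674 in Dp(16)1Yey against 696 to 2555, had a median of -0.33.

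Over the 14 libraries, after the mean of each group was taken off, the genes moved together to different degrees. Tiam1 and Synj1 gave a Pearson r of 0.95, Tiam1 and Dscam 0.94, Synj1 and Dscam 0.92 and Synj1 and Itsn1 0.91. Pcp4 gave 0.72 with Ncam2 and 0.10 to 0.45 with the other 7, and Kcnj15 gave 0.10 to 0.61. The libraries share the nearly alike littermate pairs and their depth, and these values are descriptions. Among 11241 named loci with a mean of at least 100, those most like Tiam1 included Pcdh8 and Myo16 (r 0.99 each) and those most like Dscam were Cacna1i (0.99), Sptbn4 (0.98) and Matk (0.97). Grik1 was most like Cntnap5a (0.99), Gpr158 (0.98) and Snhg11 (0.98), and Synj1 like Adam15 (0.98), Gabbr2 (0.98) and Adam23 (0.97). Itsn1 was most like Camk2b, Dlgap1 (0.97 each) and Shisa9 (0.96), and Ncam2 like Ncoa7 (0.98), Chst7 (0.95) and Bai3 (0.95). Kcnj6 was most like Unc80 (0.91), Pgr and Grm5 (0.89 each), and Kcnj15 like Pcdhb5 (0.84), Sntb2 (0.79) and Ppp1r3c (0.78). Pcp4 had other neighbours, 1810030O07Rik (0.94), Hps3 (0.92) and Brms1l (0.92).

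The genes were last set against the neuron marker level of their own library, a scale chosen after the values were seen. Dscam then stood at 0.57, 0.018, 0.53 and 0.80 log2 units from the littermate mean in Dp(16)1Yey replicates 0 to 3, where the 4 littermates lay within 0.075 of it. The mean difference was 0.48 (exact two-sided permutation p 0.0571). Tiam1 stood at 0.48, -0.11, 0.39 and 0.38, with littermates within 0.050, and a mean of 0.28 (exact p 0.143). Pcp4 differed by 0.54, Synj1 by 0.45, Itsn1 by 0.40, Grik1 by 0.31, Ncam2 by 0.18 and Kcnj6 by -0.45, with overlapping groups and exact p from 0.114 to 0.657. In 189N3 the joined Pcp4 locus differed by -0.63 and was below every littermate (exact p 0.1, the smallest possible), and the other 8 genes overlapped. In Dp(16)1Yey Kcnj15, on 3 to 11 fragments, was above every littermate (mean 0.72, exact p 0.0286). The share of all loci that separate on this scale was not counted. Both separations lie in the direction in which the scale moved the median of all loci, to -0.31 in 189N3. Since the marker mean itself differed by -0.28 in Dp(16)1Yey, this scale moved the median of all loci there to 0.31, that of the 8 genes to 0.36 and that of the other segment loci to 0.76, and the distance between the last 2 stayed as it was.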

How the data were processed

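The 14 hippocampal libraries were grouped by their labels, 3 or 4 to a group. Per the labels and methods, the authors aligned reads to mm10 with Bowtie and TopHat (versions not given in the sources used here), merged the Cufflinks assemblies and corrected for fragment bias and multi-mapping. The deposited gene table holds signal values: the fragments of a locus, scaled by a factor common to the library. When unscaled, 100% of nonzero values were whole fragments. Isoform values are estimated shares of them. Antisense loci that the methods say were removed are still in the table. The methods describe total stranded RNA and the labels polyA RNA. Loci were named from the deposited transcript map, whose numbers are shifted by up to 11 over stretches.

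Values were taken as log2(value + 1), which understates changes of low genes, over loci with a mean of at least 10. Each model was compared with its littermates, and the models with each other, in limma 3.58.1 (R 4.3.3; empirical Bayes with trend, Benjamini-Hochberg at 0.05, no covariate), and single genes by exact permutation (SciPy 1.17.1). edgeR 4.0.16 and DESeq2 1.42.0 on recovered fragments, other scalings, filters and pseudocounts, averaging of the alike littermate pairs, and each library left out were alternatives. Scaling by neuron markers was added after seeing the data. The limma step was checked on simulated data. The members and lists were chosen with earlier results of these data known. Named were the 9 genes, the 2 genes of each list with the smallest p, paralogs, isoforms of at least 10% of a gene and the 3 loci most correlated with each gene. The Tiam1 isoform TCONS_00038088, the opposite-strand loci and Dyrk1a were named after their values were seen. Replicate numbers did not pair libraries. A row was not found for Dcc, Rora, Hba-a1 and Aif1. Some of the genes that these rules name are not reported here.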

Additional observations from a re-analysis of the deposited data

Results flagged for a closer look

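Within the groups of 4 libraries, 2 of the 9 genes had a library far from the other 3 by Dixon's test at 95%, which flags about 1 in 20 groups by chance. Pcp4 stood at 1184 normalized fragments in Dp(16)1Yey replicate 2, above 868 to 911 in the other 3 libraries, and Kcnj15 at 10.9 in Dp(16)1Yey replicate 0, above 4.70 to 5.10. The Kcnj15 value rests on 11 fragments.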

How the results depend on the processing

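No gene of the 9 passed an adjusted p of 0.05 under any alternative. Among the values of single genes under other settings, 313 kept their direction and 29 turned. For Dp(16)1Yey, Grik1 was -0.011 with TMM factors and -0.0067 with DESeq2, Tiam1 was -0.025 with median-ratio factors and -0.043 with TMM, and Ncam2 was 0.18 relative to neuron markers. For 189N3, Kcnj6 was 0.0069 with quantile normalization and 0.043 with DESeq2, and relative to neuron markers Ncam2 was -0.098, Tiam1 -0.040, Synj1 -0.11 and Dscam -0.047. Leaving out 1 library moved Dp(16)1Yey values over -0.24 to 0.15 for Ncam2, -0.16 to 0.35 for Grik1, -0.29 to 0.25 for Tiam1, -0.018 to 0.43 for Synj1, -0.093 to 0.39 for Itsn1, -1.12 to -0.049 for Kcnj6, 0.16 to 0.32 for Pcp4 and -0.057 to 0.47 for Dscam. In 189N3 they ran over -0.14 to 0.39 for Ncam2, -0.36 to 0.20 for Grik1, -0.32 to 0.30 for Kcnj6 and -0.0061 to 0.47 for Dscam. The median of the 8 genes ran over -0.13 (without Dp(16)1Yey replicate 0) to 0.32 (without replicate 1), and over -0.071 (without 189N3 replicate 2) to 0.28 in 189N3.

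Loci called were 0 in each main comparison. In Dp(16)1Yey they were 8 with DESeq2 and 0 to 3 leaving out 1 library (3 without Dp(16)1Yey replicate 1). In 189N3 they were 3 with median-ratio factors, 2 with TMM, 15 with DESeq2 and 0 to 28 leaving out 1 library (28 without littermate replicate 1). The interaction gave 0 to 1. Isoforms called, 13 in Dp(16)1Yey, were 45 with no filter, 0 with a mean of at least 100 and 4 to 43 leaving out 1 library. In 189N3, 22 became 3 and 14 with pseudocounts of 0.1 and 10, 172 with no filter, 0 with a mean of at least 100 and 0 to 12 leaving out 1 library. The cause was not tested. With the replicate number as a block, loci called were 0 in Dp(16)1Yey and 72 in 189N3 and isoforms 0 and 0; same-number libraries correlated at -0.581 to 0.00895, so the numbers are only names. Depth limits Kcnj15 and Kcnj6 most.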
